A study of Mus musculus with 12 samples.

Results

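The cytosolic ribosomal protein genes are the genes that encode the protein subunits of the ribosome of the cytosol. They were taken as the protein-coding genes whose symbol is Rpl or Rps followed by a number, with Rplp0, Rplp1, Rplp2 and Rpsa added. Kinase genes named Rps6k, pseudogenes, genes of mitochondrial ribosomal proteins and the gene of the Rps19 binding protein were left out. This rule used names and gene types and no measured value. It gave 85 of the 51467 genes in the count table, 52 of them named for the large subunit and 33 for the small subunit. They lie on 19 chromosomes, with 14 on chromosome 7. Of the 85, 82 passed the filter on low values (at least 3 read counts scaled to the library total, CPM, in at least 3 libraries), as did 14731 genes in all. Rpl3l, Rpl24 and Rps27rt, a retrocopy named for Rps27, did not pass.

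A ribosome needs its subunit proteins in near-equal numbers, and cells make most of them from single-copy genes whose mRNAs are abundant, long-lived and heavily translated. Most of these mRNAs begin with a terminal oligopyrimidine tract, a C followed by a run of C and T in the DNA, through which the mTOR pathway and the protein Larp1 control their translation. Mammalian genomes also hold many intronless copies of these genes, nearly all annotated as pseudogenes, and a few paralogs that encode a variant subunit and are known from testis or muscle.

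The samples were mouse embryonic stem cells (ESCs), grown in serum medium with LIF plus PD0325901 and CHIR99021 (2i), which hold them naive, and epiblast-like cells (EpiLCs), collected about 56 h after LIF and 2i were withdrawn. Cells of both types received 500 µM of the uridine analogue 4-thiouridine (4sU) for 30 min before lysis. Labelled RNA was captured after biotinylation (4sU libraries, a measure of nascent RNA), and a second portion of the extract was depleted of ribosomal RNA (total libraries). Each of the 4 groups, cell type by assay, had 3 libraries. The study's methods describe a reporter line carrying a miR-290 mCherry and a miR-302 GFP allele for the differentiation. The study calls its replicates biological. Neither labels nor methods say whether they were separate cultures or passages of one, so p-values measure the spread between these libraries.

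A 4sU library held 3097693 to 5385644 counted reads and a total library 9300845 to 21975684, which makes counting error larger for nascent values. Of 8 genes of naive pluripotency, 8 were lower in EpiLC total RNA, and of 6 genes of the primed state 5 were higher, both by the 2-fold call of limma-voom. The summed level of 10 fibroblast markers was 10.1 to 14.4 CPM in ESC total RNA, with Dcn and Postn at 0, and 16.1 to 21.2 CPM in EpiLC total RNA, with Lum at 0. Of the 4 that passed the filter, Dcn (mean 0 to 4.63 CPM) and Col1a2 (0.143 to 4.10 CPM) were called over 2-fold higher and Pdgfrb lower in EpiLCs. The sum of 6 endoderm markers was 3.00 to 8.80 CPM in ESC total RNA and 16.1 to 17.7 CPM in EpiLC total RNA, with Dab2 (mean 0.594 to 10.7 CPM) and Gata4 (2.62 to 5.28 CPM) called higher and Sox17 lower. The part of other cells in the results below was not tested. The ESC total library numbered 3 stood apart: chi-square per degree of freedom between it and the libraries numbered 1 and 2 was 28.7 and 29.8, against 2.66 between those libraries.

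The bases around the annotated start are shown for the members on which the results below turn. Each line holds 15 bases before the RefSeq start and 15 from the start on (RefSeq, build GRCm38.p6), and capitals mark the longest run of C and T. The first 3 genes are paralogs that were lower in EpiLCs. Rpl5 and Rpl27 are the members whose ratio of total to 4sU RNA differed between the cell types. Rplp2, Rps6 and Rpl28 represent members with a long run.
Rpl10l, chr12:66284387-66284416, minus strand: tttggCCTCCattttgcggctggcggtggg
Rpl39l, chr16:10170213-10170242, plus strand: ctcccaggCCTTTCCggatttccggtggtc
Rpl3l, chr17:24727811-24727840, plus strand: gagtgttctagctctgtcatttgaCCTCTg
Rpl5, chr5:107900513-107900542, plus strand: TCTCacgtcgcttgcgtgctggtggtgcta
Rpl27, chr11:101442230-101442259, plus strand: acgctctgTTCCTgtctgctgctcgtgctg
Rplp2, chr7:141447636-141447665, plus strand: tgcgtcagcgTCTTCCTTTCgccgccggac
Rps6, chr4:86857353-86857382, minus strand: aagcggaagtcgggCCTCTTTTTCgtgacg
Rpl28, chr7:4792950-4792979, plus strand: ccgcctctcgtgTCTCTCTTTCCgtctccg
RefSeq gave 77 annotated starts for 65 of the 85 members. In the 40 bases centred on the start, a run of at least 8 C or T occurred at 31 of the 77 starts (40.3%) and at 16.05% of all 32851 starts in the table. The letters CTTTCC on the transcribed-sense strand occurred in the same window at 12 starts (15.6%) against 1.95% of all. In the whole 300-base promoter window, searched on both strands, CCGGAAG was found at 35.1% of the members' starts and 8.86% of all, and AAGATGG at 15.6% and 6.34%. CTTTCC is itself made of C and T and so overlaps the runs. These matches describe the letters only. Rpl10l, Rpl3l, Rpl5 and Rpl27 had no run of 8 within the bases printed, and Rpl39l had one of 7. The run of Rpl5 is cut by the edge of the printed bases, and in the 40-base window its longest run was 9.

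Levels were compared first. Together the members took 2.09% ± 0.0800 (SD, n = 3) of the reads of ESC total libraries and 2.06% ± 0.0318 of EpiLC total libraries. In 4sU libraries they took 1.24% ± 0.136 in ESCs and 1.16% ± 0.0253 in EpiLCs. The ranges of the cell types overlapped in both assays, 2.00 to 2.15% against 2.04 to 2.10% in total RNA. In bulk samples, a smaller part of the cells expressing a gene and less RNA per cell cannot be told apart.

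A few members held much of this share. The 10 most abundant took 59.1% of the members' reads in ESC total RNA and 58.8% in EpiLC total RNA, against 38.7% and 40.4% for the 10 most abundant in 4sU RNA. Rpl8, which sits near the peptidyl transferase centre, had 2150 ± 110 CPM in ESCs and 2031 ± 25.8 CPM in EpiLCs. Rps3, which lines the mRNA entry channel, had 2107 ± 88.3 and 2143 ± 54.9 CPM. At the other end, 16 members in ESCs and 18 in EpiLCs had a mean under 10 CPM in total RNA, against 3 and 5 in 4sU RNA. Rps6, the subunit phosphorylated by the S6 kinases, was counted at 4.19, 4.32 and 4.81 CPM in ESC total RNA. In ESC 4sU RNA it had 44.9, 55.0 and 55.9 CPM. Of the transcript windows of Rps6, described below, 15.4% had no copy in another gene. The shares were 92.1% for Rpl8 and 97.0% for Rps3. Levels of these members are thus not on one footing, and the part of this in the low Rps6 counts was not tested.

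Per kilobase of exon, high levels in ESC total RNA were those of Rpl8 (2494 ± 127 CPM per kb), Rplp1 (2318 ± 200), Rpl4 (1398 ± 36.8) and Rps3 (1104 ± 46.3). The difference between Rpl8 and Rplp1 was within their spread, and Rplp1, Rpl4 and Rps3 were separated from each other by more than the SDs. Among the 76 kept members that are not paralogs, the 90th percentile of this level was 64.7 times the 10th percentile in ESC total RNA and 60.7 times in EpiLC total RNA. In 4sU RNA the same quotient was 5.30 in ESCs and 6.07 in EpiLCs. Dividing by the length of the principal transcript gave 78.2 in ESC total RNA. Dividing by the number of transcript windows without a copy in another gene, described below, gave 34.1 in ESC total and 30.8 in EpiLC total RNA, and 10.8 and 9.47 in 4sU RNA.

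**Figure D1:**
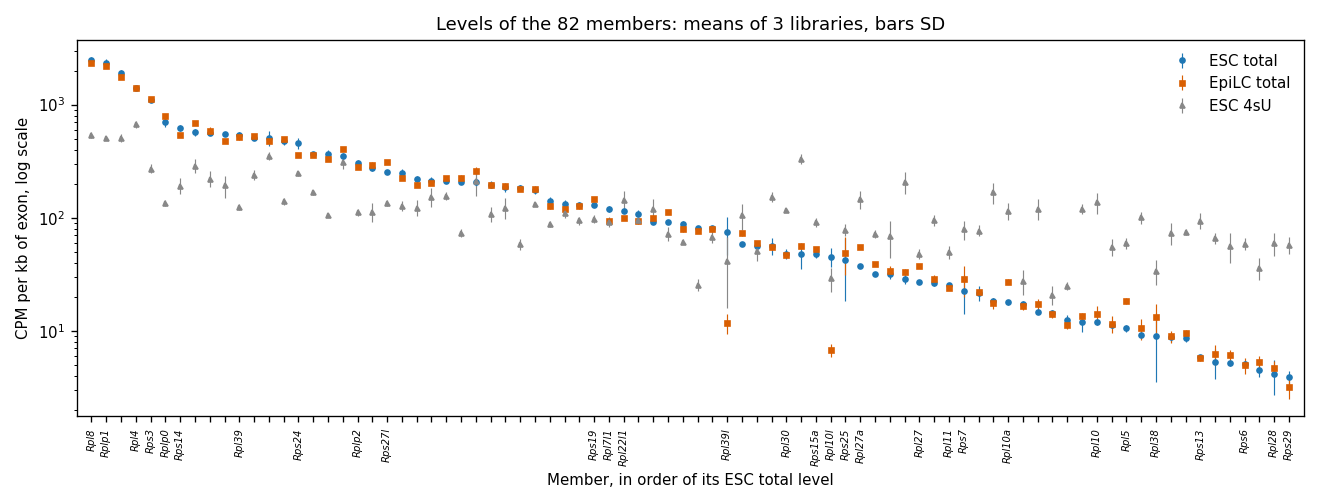
Level of each of the 82 members that passed the filter, as CPM per kilobase of exon on a log scale, in order of the ESC total level, with the symbols of some members given. Points are means of 3 libraries and bars their SD. ESC and EpiLC total levels nearly coincide for most members, Rpl39l and Rpl10l fall well below in EpiLCs, and 4sU levels span a far narrower range than total levels.

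The change in mRNA level asks how far the ribosomal protein mRNAs moved as ESCs became EpiLCs. It was small for nearly all of them: 77 of the 82 (93.9%) had an mRNA change within 0.5 on the log2 scale, as had 48.3% of all genes tested. The median standard error (SE) of the change was 0.10 over the members and 0.13 over all genes. By limma-voom, 8 members were higher and 17 lower in EpiLC total RNA at an adjusted p under 0.05, against 31.4% of all 14731 genes higher and 32.1% lower. In either direction 25 members (30.5%) passed and 63.5% of all genes. The median change over the members was -0.07 on the log2 scale, and 0.02 over all genes. With library totals in place of TMM scaling the split was 13 higher and 5 lower, against 35.7% and 27.8% of all genes. With median-of-ratios scaling it was 5 and 18, against 30% and 33.6%. Beyond 2-fold, 0 members were higher and 2 lower (16.3% and 11.2% of all genes, 27.6% in either direction). The number lower was 5, 6 and 27 without ESC total library 1, 2 or 3, against 29.7%, 29.1% and 34.2% of all genes. It was 8, 9 and 7 without EpiLC total library 1, 2 or 3, against 28.9%, 28.7% and 28.7%. The number higher was 5 without ESC total library 2 and without EpiLC total library 1 or 2, against 28%, 28.4% and 28.2% of all genes.

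**Figure D2:**
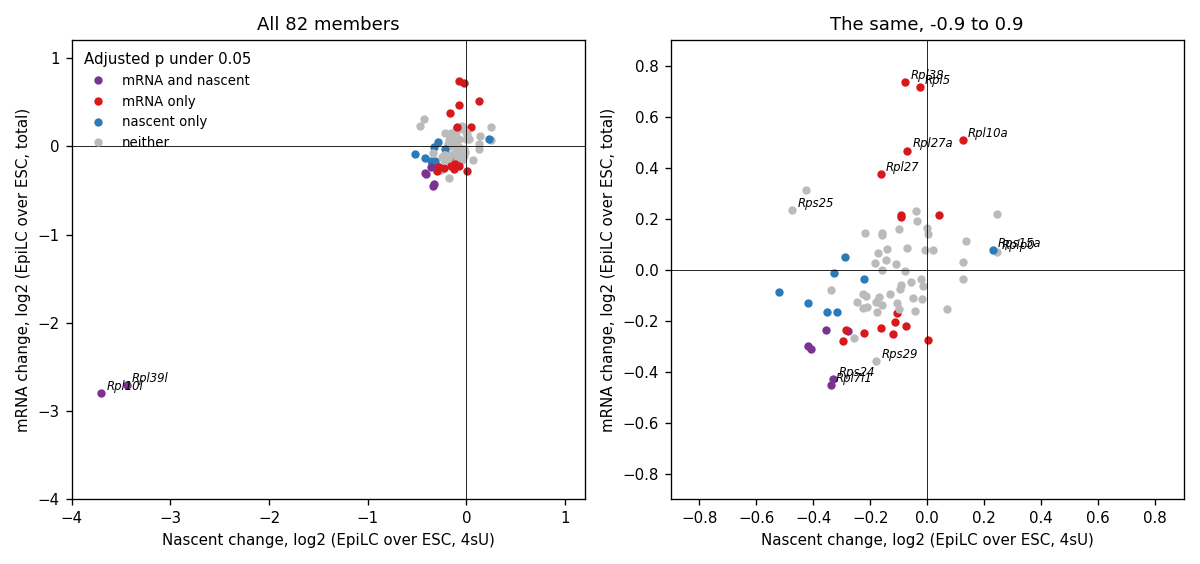
Change of each member in total RNA (vertical) against 4sU RNA (horizontal), EpiLC over ESC on the log2 scale, from limma-voom. Colours give the assays in which the adjusted p was under 0.05. Rpl10l and Rpl39l lie at the lower left, far from the other 80 members, which gather around 0 in the enlarged panel.

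The 2 members past 2-fold were both paralogs. Rpl10l is an intronless copy, with 1 exon on chromosome 12, of X-linked Rpl10, whose protein joins the large subunit late and completes its P site. It was counted at 40.9, 41.3 and 56.7 CPM in ESC total RNA and at 5.91, 7.69 and 7.04 CPM in EpiLC total RNA. Every ESC library lay above every EpiLC library, and the mRNA change was -2.79 ± 0.21 (SE, limma-voom adjusted p = 3.18e-08).

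In 4sU RNA, Rpl10l had 21.7, 33.4 and 34.5 CPM in ESCs and 1.502, 3.22 and 1.94 CPM in EpiLCs, which correspond to 98 to 180 reads against 6 to 14. The nascent change was -3.70 ± 0.47 (limma-voom adjusted p = 1.56e-05). The parent gene Rpl10 had 10.5 to 11.3 CPM in ESC total RNA and 11.2 to 15.5 in EpiLC total RNA, and its mRNA change of 0.14 ± 0.18 did not pass the test (limma-voom adjusted p = 0.498). Levels of the pair are not on one footing, since 92.4% of the windows of the Rpl10l transcript and 14.6% of those of Rpl10 had no copy in another gene.

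Rpl39l, on chromosome 16, is the copy of X-linked Rpl39, a very small protein in the wall of the exit tunnel. It was counted at 50.1, 48.0 and 88.6 CPM in ESC total RNA and at 11.4, 7.51 and 10.3 CPM in EpiLC total RNA, a change of -2.71 ± 0.32 (limma-voom adjusted p = 4.18e-06). In 4sU RNA it had 22.8, 21.9 and 59.7 CPM in ESCs and 2.503, 3.45 and 1.94 CPM in EpiLCs, a change of -3.44 ± 0.77 (limma-voom adjusted p = 0.00179). The ESC libraries numbered 3 were the highest in both assays, and the groups did not overlap. Rpl39 itself had 304 to 345 CPM in ESC total RNA and 297 to 322 CPM in EpiLC total RNA (change -0.15 ± 0.08, limma-voom adjusted p = 0.109).

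Rpl3l, a paralog of Rpl3 known from striated muscle, stayed under the filter. It had 46, 71 and 37 reads in ESC total libraries, or 2.38, 3.23 and 3.36 CPM. In EpiLC total libraries it had 3, 2 and 3 reads, at or under 0.323 CPM. Summed over libraries, 154 reads stood against 8, an ESC level 11.3 times the EpiLC level (exact binomial 95% interval 5.60 to 26.7, counting error only). In 4sU RNA 16 reads stood against 1, with 4, 7 and 5 reads in ESC libraries and 0, 0 and 1 in EpiLC libraries. The groups did not overlap there, but counting error is large at such counts. When the filter was dropped, its mRNA change was called (limma-voom adjusted p = 1.3e-05), as was its nascent change (-2.64 ± 0.55, limma-voom adjusted p = 0.00123).

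The other paralogs moved less. Rpl7l1, a relative of Rpl7, fell from 294 to 332 CPM in ESC total RNA to 229 to 251 CPM in EpiLCs (-0.45 ± 0.09, limma-voom adjusted p = 0.000336). Rpl22l1, the paralog of the RNA-binding subunit Rpl22, went from 63.3 to 64.7 CPM to 54.6 to 56.4 CPM (-0.30 ± 0.11, limma-voom adjusted p = 0.0224), a call lost without ESC total library 1 or 2 or EpiLC total library 1 or 2 (-0.29 to -0.28). Rpl22 had a change of 0.03 ± 0.07 (limma-voom adjusted p = 0.713). Rps27l, a p53-responsive paralog of Rps27, rose from 143 to 152 CPM to 178 to 182 CPM (0.21 ± 0.06, limma-voom adjusted p = 0.00847). Rpl36al, with 18.7 to 20.05 CPM in ESCs and 17.4 to 20.3 CPM in EpiLCs, overlapped between the cell types. Their parent genes Rpl3 (-0.13 ± 0.12), Rpl7 (-0.03 ± 0.08), Rps27 (0.09 ± 0.17) and Rpl36a (0.16 ± 0.29) had mRNA changes that did not pass. Of the windows of these parent transcripts 14.4%, 46.7%, 1.35% and 14.5%, in that order, had no copy in another gene. The shares were 100% for Rpl3l, 90.8% for Rpl7l1, 77.6% for Rps27l and 36.7% for Rpl36al. Parents and paralogs are thus not on one footing. Rps27rt had 0 reads in all 6 4sU libraries, which allows at most 0.557 to 0.968 CPM in each of them, and a mean of 0.0628 CPM in ESC total RNA.

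**Figure D3:**
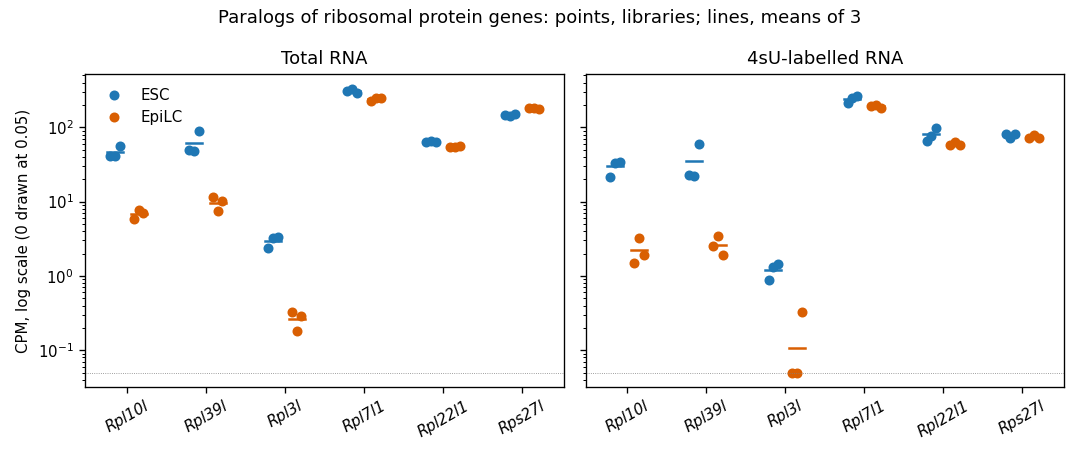
CPM of 6 paralogs on a log scale, total RNA on the left and 4sU RNA on the right. Points are libraries, lines the means of 3, and values of 0 are drawn at 0.05. Rpl10l and Rpl39l separate the cell types in both assays. Rpl3l does so in total RNA, and its 4sU values, though apart, rest on 16 and 1 reads. Rpl7l1, Rpl22l1 and Rps27l differ by far less.

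Rps4x, an X-linked subunit, had 226 to 256 CPM in ESC total RNA and 217 to 227 CPM in EpiLCs, a change of -0.24 ± 0.09 (limma-voom adjusted p = 0.0314). This call was lost without ESC total library 1 or 2, any EpiLC total library or EpiLC 4sU library 3, with changes of -0.25 to -0.20. Its autosomal copy Rps4l, on chromosome 6, is annotated as a transcribed processed pseudogene and so is not a member. Rps4l had 384, 370 and 282 CPM in ESC total RNA against 188, 209 and 203 CPM in EpiLC total RNA. The ESC levels all lay above the EpiLC levels, and the change was -0.87 ± 0.11 in total RNA (limma-voom adjusted p = 7.9e-06) and -0.82 ± 0.14 in 4sU RNA (limma-voom adjusted p = 0.000203). Only 27.8% of the windows of Rps4x lack a copy in another annotated gene.

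Among the subunits of the core ribosome, 6 rose in total RNA that are neither paralogs nor, as Rpl38 below, variable between replicates. Rpl5, which carries the small 5S rRNA into the large subunit together with Rpl11, had 19.7, 22.6 and 22.5 CPM in ESCs and 34.9, 38.6 and 39.2 CPM in EpiLCs (0.72 ± 0.10, limma-voom adjusted p = 2.99e-05). Its partner Rpl11 had 20.95 to 21.4 CPM in ESCs and 19.9 to 20.3 CPM in EpiLCs (-0.16 ± 0.09, limma-voom adjusted p = 0.143). Rpl10a, a subunit of the stalk beside the tRNA exit site, rose from 14.2 to 15.6 CPM to 21.5 to 23.9 CPM (0.51 ± 0.14, limma-voom adjusted p = 0.00515). Rpl27a went from 42.2 to 45.6 CPM to 62.0 to 65.4 CPM (0.47 ± 0.11, limma-voom adjusted p = 0.00167) and Rpl27 from 22.9 to 24.4 CPM to 32.0 to 33.5 CPM (0.38 ± 0.08, limma-voom adjusted p = 0.00131). For these 4 genes the EpiLC libraries all lay above the ESC libraries. Of their transcript windows 6.16% (Rpl5), 11.9% (Rpl10a), 64.1% (Rpl27a) and 35.9% (Rpl27) lack a copy in another gene. The part of this in the changes was not tested. Rpl15 and Rpl13a, the latter a subunit released from the ribosome in inflammatory signalling, each rose by 0.21 on the log2 scale. Both calls were lost without ESC total library 2 (0.20 and 0.19) and without EpiLC total library 1, 2 or 3 (0.20 to 0.23). That of Rpl15 was also lost without ESC total library 1 (0.21), and that of Rpl13a without ESC total library 3 (0.18) or ESC 4sU library 2 (0.20). Rpl5, Rpl10a, Rpl27a and Rpl27 passed in all 12 such fits.

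Of the 17 that fell, Rps24, a subunit needed for processing of the small-subunit rRNA and one of those mutated in Diamond-Blackfan anaemia, changed by -0.43 ± 0.09, from 333 to 415 CPM to 293 to 307 CPM (limma-voom adjusted p = 0.000506). Rps14 changed by -0.31 ± 0.09 (limma-voom adjusted p = 0.00726), Rpl32 and Rps20 by -0.28 each, and Rpl8 by -0.17. Of the 12 fits that left out 1 library, those without ESC total library 1 or 2 or EpiLC total library 3 ended the calls of Rpl32, Rps20 and Rpl8 (-0.27 to -0.14 over the 3 genes). Those without EpiLC total library 1 or 2 also ended the calls of Rpl32 and Rpl8, and those without any of the EpiLC 4sU libraries that of Rpl8 (-0.16). Rps24 and Rps14 passed in all 12. Of the stalk proteins Rplp0, Rplp1 and Rplp2, which recruit the elongation factors, Rplp2 fell by 0.22 ± 0.07 (limma-voom adjusted p = 0.0153), a call lost without ESC total library 1 (-0.19) or EpiLC total library 3 (-0.20). Rplp0 (0.07 ± 0.08) and Rplp1 (-0.16 ± 0.07) did not pass. Rps19, the gene most often mutated in Diamond-Blackfan anaemia, had 218 to 223 CPM in ESCs and 244 to 251 CPM in EpiLCs, a change of 0.08 ± 0.07 after TMM scaling (limma-voom adjusted p = 0.361). Rps3, Rpl4, Rpl23, Rpsa, Rps6 and Rps27a, which encodes a fusion of ubiquitin and the subunit, had changes of -0.09 to 0.07 with an adjusted p of at least 0.236 by limma-voom.

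Nascent RNA was compared next, to ask whether synthesis moved. The nascent change was within 0.5 on the log2 scale for 96.3% of the members and 50.4% of all genes, with a median SE of 0.11 and 0.19. By limma-voom 1 member was higher and 15 lower in EpiLC 4sU RNA, against 23.7% and 28.8% of all genes. In all 16 members (19.5%) passed and 52.5% of all genes, and past 2-fold 2 were lower and 0 higher (13.5% and 11.9%, in sum 25.5%). The median was -0.14 over the members and -0.09 over all genes. Median-of-ratios scaling gave 2 higher and 9 lower, against 25.8% and 26.1% of all genes. TMM scaling within each assay also gave 2 and 9, against 26.1% and 25.9%. The number lower was 33 without ESC 4sU library 1 and 9 without ESC 4sU library 3, against 28.1% and 28.2% of all genes. It was 9, 7 and 9 without EpiLC 4sU library 1, 2 or 3, against 24.3%, 24.2% and 24.8%.

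Rps15a was the member called higher, with 450, 494 and 532 CPM in ESC 4sU RNA and 581, 566 and 607 CPM in EpiLC 4sU RNA (0.23 ± 0.08, limma-voom adjusted p = 0.0238). This call was lost without ESC 4sU library 1 (0.13) and without EpiLC 4sU library 1 (0.23, adjusted p = 0.059 by limma-voom) or 3 (0.22). Beside Rpl10l and Rpl39l, a called fall was that of Rpl30, which regulates its own splicing in yeast, from 112 to 118 CPM in ESCs to 82.1 to 93.0 CPM in EpiLCs (-0.42 ± 0.10, limma-voom adjusted p = 0.00218). Rplp0 (0.25), Rps9 (0.13) and Rps25 (-0.47) were among the 4 highest and 4 lowest changes without passing the test. In both assays 8 members (9.76%) were called in the same direction, against 42.2% of all genes. In total RNA only 17 were called (20.7%, as of all genes), in 4sU RNA only 8 (9.76%, against 9.67%), and in neither 49 (59.8%, against 26.8%).

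The stability change is the change in total RNA minus the change in 4sU RNA. It is a relative measure, because scaling set every library to its own total and makeup. Of the 82 members, 2 had a higher ratio of total to 4sU RNA in EpiLCs and 0 a lower one by limma-voom (2.72% and 1.88% of all genes, 4.6% in sum), with 0 beyond 2-fold against 1.54% of all genes (1.24% higher, 0.305% lower). At an unadjusted p under 0.05 there were 8 by limma-voom, but the share of all genes at this threshold was not counted, so the number has no background. edgeR gave 2 higher and 0 lower, against 2.88% and 1.93% of all genes, and DESeq2 1 and 0, against 2.83% and 5.36%. The median was 0.09 over the members and 0.11 over all genes, and 90.2% of the members were within 0.5, as were 70.7% of all genes. The median SE of the stability change was 0.15 over the members and 0.24 over all genes, and its part in these shares was not tested.

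The 2 were Rpl5 and Rpl27. When each total library was set beside the 4sU library of its number, Rpl5 had log2 ratios of -2.17, -2.24 and -2.34 in ESCs and -1.73, -1.42 and -1.39 in EpiLCs. Its 4sU level was 108 to 133 CPM in ESCs and 116 to 128 CPM in EpiLCs, so the groups overlapped there and were apart in total RNA. The stability change was 0.74 ± 0.14 (limma-voom adjusted p = 0.0142), and it passed in all 12 fits that left out 1 library. Without the expression filter it was 0.64 and missed the threshold (limma-voom adjusted p = 0.0634). Only 6.16% of the windows of the Rpl5 transcript lack a copy in another gene, the copies lie in 15 other genes, and the part of this in the result was not tested.

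Rpl27 had log2 ratios of -0.40, -0.56 and -0.82 in ESCs and 0.03, -0.09 and -0.06 in EpiLCs. The stability change was 0.54 ± 0.14 (limma-voom adjusted p = 0.041), and in 9 of the 12 fits that left out 1 library it missed the threshold, at 0.51 to 0.58. The fits that kept it were those without ESC 4sU library 1, ESC 4sU library 3 or ESC total library 3. Of the windows of the Rpl27 transcript 35.9% lack a copy in another gene, the copies lie in 11 other genes, and the part of this was not tested. The number of members higher was 3 without ESC 4sU library 1, against 2.64% of all genes. It was 1 in each fit that lost Rpl27, against 0.834% to 2.23%. Rpl27a, at 0.54 ± 0.15, did not pass (limma-voom adjusted p = 0.061). Beside these, the highest stability changes among members with at least 10 CPM were those of Rpl10l (0.90 ± 0.51), Rpl38 (0.81 ± 0.43) and Rps7 (0.74 ± 0.34), and the lowest those of Rps20 (-0.28 ± 0.13), Rpl39 (-0.22 ± 0.14), Rps29 and Rplp0 (-0.18 ± 0.13). None of them passed. Without ESC total library 3 the number of members higher was 6, with 1 lower, against 8.96% and 5.04% of all genes, and without both ESC libraries numbered 3 it was 7, with 2 lower, against 13.7% and 6.69%.

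The extracts were split into 4sU and total portions. With each number within a cell type taken as 1 extract and fitted as a block, 4 members were higher and 0 lower, against 7.31% and 4.44% of all genes. Beside Rpl5 and Rpl27 these were Rpl27a (0.54, limma-voom adjusted p = 0.0296) and Rps7 (0.76, limma-voom adjusted p = 0.029).

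The ratio of total to 4sU RNA within a cell type asks how much mature mRNA stands beside newly made RNA. The members were split widely. In ESCs 43 were higher in total than in 4sU RNA and 35 lower by limma-voom, against 40.2% and 38.9% of all genes (79.1% in sum), and 26 in each direction were past 2-fold (23.7% and 26.8% of all genes, 50.5% in sum). In EpiLCs 43 were higher and 33 lower, against 41.2% and 34.5% (75.7% in sum), and 26 and 24 were past 2-fold, against 24.2% and 23.3% (47.4% in sum). Of the 82 members, 80 lay on the same side of 0 in both cell types. The median over the members was 0.42 in ESCs and 0.51 in EpiLCs, and over all genes 0.03 and 0.15. By number, the member median minus that of all genes was 0.68, 0.38 and 0.07 in ESCs and 0.24, 0.32 and 0.34 in EpiLCs.

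The highest ratios in ESCs were those of Rplp0 (2.62 ± 0.09), Rpl8 (2.43 ± 0.07), Rplp1 (2.42 ± 0.08), Rpl39 (2.33 ± 0.09) and Rps3 (2.25 ± 0.08), all on the log2 scale. The lowest were those of Rps13 (-3.75 ± 0.13), Rps29 (-3.62 ± 0.21), Rpl28 (-3.56 ± 0.22), Rpl23a (-3.35 ± 0.21) and Rps6 (-3.32 ± 0.15). Rps13 had 109, 132 and 151 CPM in ESC 4sU RNA and 8.13, 8.24 and 8.07 CPM in ESC total RNA. Rplp0 had 170, 189 and 193 CPM in ESC 4sU RNA and 1006, 1024 and 852 CPM in ESC total RNA. Subunits of the ribosome thus stood at opposite ends of this ratio. Of the 3 stalk proteins, Rplp0 and Rplp1 were among the highest. Rplp2 stood further down, with means of 117 CPM in ESC 4sU RNA and 323 CPM in ESC total RNA.

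These ratios moved with the part of each transcript that had no exact copy in another annotated gene. For every member the principal transcript was cut into all its 50-base windows, the length of a read, and each window was searched for in the transcripts of all other annotated genes, pseudogenes included. Only exact matches were counted and the rest of the genome was not searched, so the share only approximates what unique alignment can count. Among the 17 members with under 20% of windows free of a copy, the median ratio was -2.57 in ESCs and -2.34 in EpiLCs, and 3 and 4 of them lay above 0. Among the 12 members with over 80%, the median was 1.26 and 1.70, and 11 lay above 0 in both cell types, Rps15a being the exception (-0.72 and -0.87). Between 20% and 50% the median was -0.06 in ESCs (25 members), and between 50% and 80% it was 0.67 (28 members). Across the 82 members Spearman's rho between the share and the ratio was 0.53 in ESCs and 0.52 in EpiLCs. These are members of one set of libraries and not independent replicates.

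The total level moved more with this share than the 4sU level, with Spearman's rho of 0.58 and 0.35 in ESCs over the same 82 members. Median ESC total levels were 14.9 CPM in the lowest class and 390 CPM in the highest, while median ESC 4sU levels were 94.9 and 292 CPM. Length (0.07) and number of uridines (0.04) of the spliced principal transcript had a rho near 0 with the ESC ratio. Introns were not counted, and the part of 4sU labelling was not tested. For the number of other genes with a copy rho with the ESC ratio was -0.45. The relation of the share to the ratio had exceptions. Rps29 and Rpl28 had 64.2% and 52.6% of windows without a copy and ratios near the lowest, and Rpl35 had 4.91% and a ratio of 0.42 ± 0.11. For the stability change rho was -0.42, and the 12 members with over 80% had a median of -0.09. The part of shared sequence in these values was not tested.

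**Figure D4:**
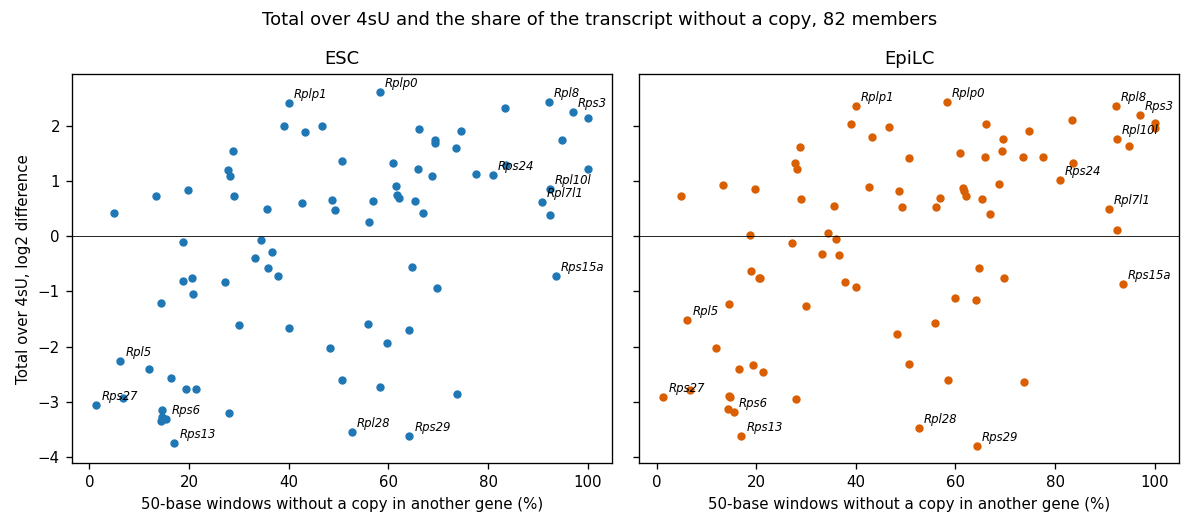
Log2 difference of total over 4sU RNA (vertical) against the percentage of 50-base transcript windows without a copy in another annotated gene (horizontal) for the 82 members, ESCs on the left and EpiLCs on the right. Members with few such windows, as Rps27 and Rps13, mostly lie under 0, and members with many, as Rpl8 and Rps3, mostly above.

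Rps25, Rpl38 and Rps7 varied most between replicates of total RNA, with an SD of within-group deviations of 0.58, 0.56 and 0.42 on the log2 scale. Rps25, needed for initiation on viral internal ribosome entry sites, had 37.1, 41.1 and 96.8 CPM in ESC total RNA and 91.5, 69.0 and 42.3 CPM in EpiLC total RNA. The EpiLC range lay within the ESC range, and the mRNA change did not pass (0.23 ± 0.30, limma-voom adjusted p = 0.506). In 4sU RNA it had 94.4 to 121 CPM in ESCs and 67.1 to 86.6 CPM in EpiLCs, with no overlap and no call (-0.47 ± 0.33, limma-voom adjusted p = 0.25).

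Reads on small nucleolar RNA (snoRNA) genes were also most frequent in ESC total library 3 and EpiLC total library 1. They were 0.659%, 0.604% and 0.973% of ESC total libraries 1 to 3 and 0.982%, 0.809% and 0.613% of EpiLC total libraries 1 to 3. The correlation of within-group deviations with the snoRNA share over these 6 libraries was 0.97 for Rps25, 0.98 for Rps7 and 0.92 for Rpl38, given as a description of genes picked for their spread. Such values were not particular to them: 6 of the 82 members had a correlation over 0.9, among them Rps2 (0.985), and 7 had one under -0.9, as Rpl35a (-0.939). None of the 3 genes holds an annotated snoRNA gene, and the part of this in their values was not tested.

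Rpl38, whose loss alters translation of Hox mRNAs in mouse embryos, had the highest mRNA change (0.74 ± 0.30, limma-voom adjusted p = 0.0467). Its levels were 2.80, 3.55 and 8.16 CPM in ESC total RNA and 9.03, 7.69 and 5.04 CPM in EpiLC total RNA, and the groups overlapped. Leaving out 1 library ended the call in 9 of 12 fits, with changes of 0.45 (without ESC total library 1) to 0.74. It was kept without ESC 4sU library 3, without EpiLC total library 3 (0.98) and without ESC total library 3 (1.04). Without ESC total library 3 and EpiLC total library 1, those with the highest snoRNA share in each cell type, it was 0.88 (limma-voom adjusted p = 0.00813). By edgeR it was 0.57 (adjusted p = 0.146).

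**Figure D5:**
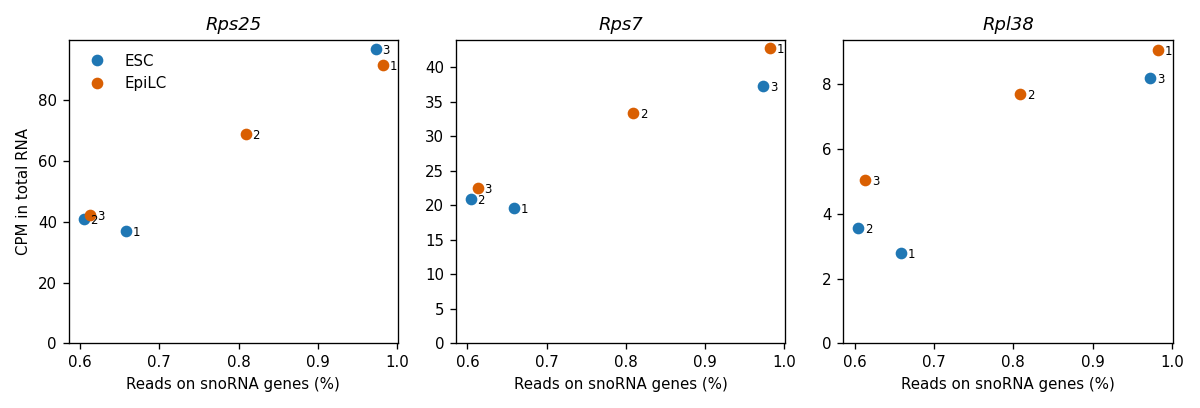
CPM of Rps25, Rps7 and Rpl38 in the 6 total libraries against the percentage of reads on snoRNA genes. Points are libraries, labelled with their replicate number. In each panel the libraries with 0.973% and 0.982% on snoRNA genes are the highest of their cell type.

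Genes around the ribosome were counted in the same fit. Among ribosomal proteins that the naming rule misses, Rack1, a scaffold on the small subunit, fell in total RNA (-0.24 ± 0.09, limma-voom adjusted p = 0.0262), and Fau, whose product is a fusion with a ubiquitin-like protein, did not pass (0.32 ± 0.30). Of 20 other mRNAs with a terminal oligopyrimidine tract, mostly translation factors, 2 (10%) were higher and 6 (30%) lower in total RNA, against 31.4% and 32.1% of all genes. In 4sU RNA 7 (35%) were higher and 4 (20%) lower, against 23.7% and 28.8%. For stability 0 were called by limma-voom, against 4.6% of all genes. An unadjusted p under 0.05 by limma-voom was reached by 6, and the share of all genes at that threshold was not counted. In total RNA the higher were Tpt1 (0.59 ± 0.18) and Nap1l1 (0.53 ± 0.08), and the lowest were the initiation factor subunits Eif3k (-0.56 ± 0.07) and Eif3l (-0.51 ± 0.09) and the nucleotide synthesis enzyme Impdh2 (-0.43 ± 0.11).

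Of 46 ribosome biogenesis and assembly factors, 6 (13%) rose and 11 (23.9%) fell in total RNA, both under the shares of all genes. In 4sU RNA 17 (37%) rose and 3 (6.52%) fell, against 23.7% and 28.8% of all genes. For stability 2 (4.35%) were lower, against 1.88% of all genes. These were the rRNA methyltransferase Nop2 (-0.64 ± 0.13, limma-voom adjusted p = 0.015) and the small-subunit assembly factor Ltv1 (-0.55 ± 0.12, limma-voom adjusted p = 0.0233). In total RNA the highest were Gar1 (0.86 ± 0.10), Mrto4 (0.49 ± 0.10) and Mdn1 (0.30 ± 0.08), and the lowest were Ubtf, an activator of rRNA transcription (-0.80 ± 0.11), Dkc1 (-0.71 ± 0.10) and Rrp9 (-0.69 ± 0.09).

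Of 16 regulators of ribosomal protein genes and mRNAs, 7 (43.8%) were higher and 4 (25%) lower in total RNA, in sum near the 63.5% of all genes. In 4sU RNA 9 (56.2%) were higher and 3 (18.8%) lower, against 23.7% and 28.8% of all genes. Myc, an activator of ribosome production, rose by 3.33 ± 0.35 in total RNA (limma-voom adjusted p = 1.18e-06) and by 3.33 ± 0.22 in 4sU RNA. Larp1, which binds the oligopyrimidine tract, rose by 1.03 ± 0.08 in total RNA (limma-voom adjusted p = 3.95e-08) and its stability change was 0.47 ± 0.12 (limma-voom adjusted p = 0.0368). Tia1, which binds the same class of mRNAs under amino acid starvation, rose by 0.65 ± 0.14. Gabpa, a factor that binds the letters CCGGAA, fell by 0.78 ± 0.07 in total RNA, the S6 kinase gene Rps6kb2 by 0.74 ± 0.13 and Eif4ebp1, a repressor of cap-dependent initiation, by 0.65 ± 0.14. Mycn was higher in 4sU RNA (1.17 ± 0.10, limma-voom adjusted p = 2.22e-07) and had a lower stability in EpiLCs (-1.04 ± 0.13, limma-voom adjusted p = 0.00154).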

How the data were processed

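The authors trimmed single-end 50-base reads (cutadapt 1.14), aligned them to mm10 with STAR 2.5.3a, kept unique alignments and counted exons by strand with featureCounts 1.5.3 on GENCODE genes. The deposited values are raw counts per gene. Unique alignment drops reads shared with near-identical copies, which touches many members. Gene types and transcripts came from GENCODE M21.

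Genes that reached 3 CPM in 3 or more libraries were fitted over all 12 libraries with limma-voom (limma 3.58.1, TMM from edgeR 4.0.16, R 4.3.3), with Benjamini-Hochberg adjustment. Calls took an adjusted p under 0.05, and 2-fold calls an absolute log2 change over 1. Unscaled CPM use library totals. The fit was tested on simulated counts. Members and lists were chosen with earlier results of these data known. Named genes were 16 members by role, paralogs and partners, the 4 highest and 4 lowest members per comparison with at least 10 CPM, and the 3 highest and lowest called of each list; others were chosen after their values were seen. Deviations of same-numbered 4sU and total libraries correlated in ESCs (0.21 to 0.46) and hardly in EpiLCs (0.02 to 0.09), and the labels do not say that a number marks 1 extract, so the main values use no block. Alternatives covered scaling, filter, edgeR, DESeq2 1.42.0, quality weights, blocks and libraries left out. A few named genes are not reported here.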

Additional observations from a re-analysis of the deposited data

Results flagged for a closer look

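The difference between the cell types in the ratio of total to 4sU RNA passed the interaction test of limma-voom for Rpl5 (0.74 ± 0.14, adjusted p = 0.0142) and for Rpl27 (0.54 ± 0.14, adjusted p = 0.041). In each, 3 of 3 EpiLC ratios were above the 3 ESC ratios.

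Reads were also found on the 284 pseudogenes named for a ribosomal protein, which no comparison above used except for Rps4l. They took 0.0278% of ESC 4sU reads, 0.0684% of ESC total reads, 0.0196% of EpiLC 4sU reads and 0.0543% of EpiLC total reads (means of 3 libraries). Of the 284, 200 had a read in any library, 20 had at least 100 reads summed over the libraries, and 14 passed the filter on low values. After Rps4l the highest were Rps3a3, with 118 CPM in ESC total RNA and 119 CPM in EpiLC total RNA, and Rpl14-ps1, with 84.3 and 82.6 CPM. Whether these reads come from the pseudogenes or from members with near-identical sequence was not tested.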

How the results depend on the processing

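Counts are members higher and lower, and medians are the member median minus that of all genes on the log2 scale. The cause of these shifts was not tested. For the mRNA change, 8 and 17 became 5 and 18 with median-of-ratios scaling, 13 and 5 with library totals, 4 and 24 without the filter, 6 and 11 by edgeR, 13 and 32 with quality weights, and 13 and 32 without both ESC libraries numbered 3. The shares of all genes were 30% and 33.6% with median-of-ratios scaling, 35.7% and 27.8% with library totals, and 18.3% and 18.4% without the filter. They were 29.7% and 30.9% by edgeR, 37.8% and 38% with quality weights, and 36.2% and 36.7% without both ESC libraries numbered 3. The median was -0.31 without the filter and -0.21 over members with over 80% unshared windows. For the nascent change, 1 and 15 became 2 and 9 with median-of-ratios scaling and with TMM in each assay, 2 and 12 with library totals, 3 and 10 by DESeq2, 1 and 6 without the filter, 3 and 22 with quality weights, 4 and 16 without both ESC libraries numbered 3, and 2 and 7 in a fit of 6 libraries. All-gene shares were 25.8% and 26.1% with median-of-ratios scaling, 26.1% and 25.9% with TMM in each assay, and 24.5% and 27.7% with library totals. By DESeq2 they were 25.8% and 27.4%, and without the filter 13.1% and 13.4%. They were 25.4% and 32.4% with quality weights, 25.8% and 33.5% without both ESC libraries numbered 3, and 26.2% and 25.6% with 6 libraries. Without ESC total 3 and EpiLC total 1, an alternative chosen after seeing the data as was the split by unshared windows, 2 were higher, against 25.8% of all genes. For stability, 2 and 0 became 1 higher with median-of-ratios scaling, TMM in each assay and DESeq2, 0 higher without the filter, 7 and 1 with quality weights, and 7 and 2 without both ESC libraries numbered 3. Of all genes, 1.88%, 2.07% and 2.83% were higher with median-of-ratios scaling, TMM in each assay and DESeq2, and 0.383% without the filter. Higher and lower were 12.8% and 6.54% with quality weights, and 13.7% and 6.69% without both ESC libraries numbered 3. The median of total over 4sU was 1.45 in ESCs and 1.25 in EpiLCs without the filter, 1.23 and 1.56 over members with over 80% unshared windows, and 0.31 in EpiLCs with 6 libraries. The level quotient was 78.2 by transcript length and 34.1 by unshared windows. No direction of a called value reversed under these alternatives.

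Leaving out 1 library gave 5 to 11 higher and 5 to 27 lower for the mRNA change, 0 to 2 and 7 to 33 for the nascent change, 1 to 6 and 0 to 1 for stability, 43 to 44 and 33 to 38 for total over 4sU in ESCs, and 42 to 43 and 32 to 34 in EpiLCs. Shares of all genes were 28% to 33.4% higher and 28.7% to 34.2% lower for the mRNA change. They were 20% to 25.9% and 24.2% to 32.2% for the nascent change, and 0.834% to 8.96% and 0.793% to 5.04% for stability. For total over 4sU they were 37.6% to 41.4% and 36.7% to 40% in ESCs, and 38.4% to 43.4% and 32.2% to 36% in EpiLCs. The medians ranged from -0.12 to -0.06, -0.16 to 0.01, -0.11 to 0.11, 0.25 to 0.46 and 0.31 to 0.37 in that order.

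The numbers of the libraries were shared without a stated pairing. With a replicate block on the number, 6 and 16 members were called for the mRNA change, 2 and 15 for the nascent change and 2 and 0 for stability. The shares of all genes were 31.4% and 32.2%, 24.3% and 31%, and 4.05% and 2.56%. With a block on the cell type and number, 4 and 0 were called for stability, with 44 and 36 for total over 4sU in ESCs and 43 and 33 in EpiLCs. Of all genes, 7.31% and 4.44%, 41.9% and 40.5%, and 43.2% and 36.1% were called.

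Depth limits the nascent values of low members most: 3 reads stand for 0.557 to 0.968 CPM in a 4sU library and 0.137 to 0.323 CPM in a total library.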
